A study of Mus musculus with 4 samples.

Results

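The coding changes that UV YUMM 1.1-9 had gained over YUMM 1.1 were set against those listed for YUMM 1.1 itself, by what they did to the protein. UV YUMM 1.1-9 is a mouse cell line listed with its additional mutations relative to YUMM 1.1, which is taken as its parent. That YUMM lines are melanoma lines is background from outside the labels. Members were chosen by their read counts: a change was kept when it had at least 5 reads with the alternative base and when those reads made up at least 10% of all reads at the site, which is its allele fraction. This floor kept 376 of the 653 distinct changes listed for UV YUMM 1.1-9 and all 428 distinct changes listed for YUMM 1.1. Before the floor, the UV YUMM 1.1-9 list reached down to 3 alternative reads and an allele fraction of 3.62%. The YUMM 1.1 list held no change below 5 reads or 10%, and only the UV YUMM 1.1-9 list gives reads of another line. The lists were thus made in different ways, and differences in share between them cannot be told apart from that. The 4 tables of the series, which also cover YUMM 1.3 and MB49, hold 2013 distinct changes, and 1736 of them pass the floor.

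Each line was sequenced as 1 exome library, so the tests compare 2 variant lists and not 2 conditions. The labels give a cell line name for each library, the source as mouse tumours and the DNA as extracted from cell lines. The protocol text shared by all libraries describes MB49 cells grown in tamoxifen-treated mice in which Atg7 was deleted, and it does not say whether any library here came from such a tumour. The labels state neither the ultraviolet dose behind the name UV YUMM 1.1-9 nor whether it is 1 clone. YUMM lines carry engineered melanoma alleles, an activating Braf allele among them, as background from outside the labels. None of Braf, Cdkn2a, Nras, Trp53 and Mc1r had a row in either list, so the lists offer no check of the cell type. An allele inherited from YUMM 1.1 would in any case be left out of a list of additional changes.

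Ultraviolet light joins neighbouring pyrimidines, C or T, on 1 DNA strand, and copying past such a lesion can leave a wrong base, most often T in place of C. What that does to a protein depends on the codon, the base triplet that encodes a residue. A change at the third codon position is often synonymous and leaves the residue as it was, a missense change swaps the residue, and a stop gain ends the protein early. SIFT is a predictor that calls a missense change deleterious when the residue is conserved among related proteins.

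Shown here are codon changes that recur in the glutamate, phenylalanine and stop gain results of UV YUMM 1.1-9. Codon changes were not ranked over the whole list. The changed base is in capitals, and the codon before and after the change is read 5′ to 3′ on the coding strand. On the opposite strand the glutamate to lysine changes read as TTC to TTT and CTC to CTT, and phenylalanine codons hold pyrimidines only.
Glutamate to lysine: Gaa to Aaa
Glutamate to lysine: Gag to Aag
Phenylalanine to isoleucine: Ttc to Atc
Phenylalanine to isoleucine: Ttt to Att
Phenylalanine to leucine: Ttc to Ctc
Glutamine to stop: Cag to Tag
Lysine to stop: Aag to Tag

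The reads that chose the members are given as a description only. In UV YUMM 1.1-9 the kept changes had 5 to 36 alternative reads, with a median of 7, at a median depth of 47.5 reads (interquartile range 37 to 63). Their median allele fraction was 15.5% (interquartile range 13.2 to 18.9), and the highest was 41.2%. YUMM 1.1 had no alternative read at 333 of these sites and 1 at the other 43, at a median depth of 55 reads. In the YUMM 1.1 list the median allele fraction was 24.9% (16.7 to 33.3) at a median depth of 70 reads. Of the 277 UV YUMM 1.1-9 changes outside the floor, 129 failed on reads alone, 69 on allele fraction alone and 79 on both. The 75 changes just inside it, with exactly 5 alternative reads, held 7 stop gains and 15 synonymous changes. The 75 just outside it, with 4 alternative reads and at least 10%, held 2 stop gains and 30 synonymous changes.

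Both lists also differ in make-up. Sites found in the YUMM 1.3 or MB49 list as well made up 108 of 428 in YUMM 1.1, or 25.2% (exact 95% interval 21.2 to 29.6), and 0 of 376 in UV YUMM 1.1-9. The UV YUMM 1.1-9 list leaves out changes that YUMM 1.1 carries, so this gap cannot be told apart from how the list was made. Genes whose symbols mark multigene families or predicted genes held 32.9% of the YUMM 1.1 changes and 16.8% of the UV YUMM 1.1-9 changes. Each comparison was therefore also made without shared sites and without these families.

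Stop gains were more frequent among the changes gained by UV YUMM 1.1-9. They made up 20 of 376, or 5.32% (exact 95% interval 3.28 to 8.10), against 6 of 428, or 1.40% (0.516 to 3.03), in YUMM 1.1. The difference was 3.92 percentage points (Newcombe 95% interval 1.46 to 6.77; Fisher's exact test, two-sided, adjusted p = 0.00980 over 9 results). It no longer passed the threshold of 0.05 without sites shared between lists, where it was 3.76 points (exact test, adjusted p = 0.0697), or when the allele fraction had to reach 20%, where 5 of 77 and 6 of 278 changes were stop gains (exact test, adjusted p = 0.196).

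Missense changes made up 236 of 376 in UV YUMM 1.1-9, or 62.8% (57.7 to 67.7), and 293 of 428 in YUMM 1.1, or 68.5% (63.8 to 72.8). This difference of -5.69 points (-12.2 to 0.874) did not pass the threshold by Fisher's exact test (adjusted p = 0.182). Synonymous changes made up 118 of 376, or 31.4%, and 129 of 428, or 30.1%, a difference of 1.24 points that did not pass either (-5.11 to 7.64; exact test, adjusted p = 0.759). The 2 other members were a stop loss in Nedd1, a centrosome protein gene, with 5 of 50 reads, and a change in an incomplete last codon of AC073945.1 with 7 of 44 reads.

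**Figure D1:**
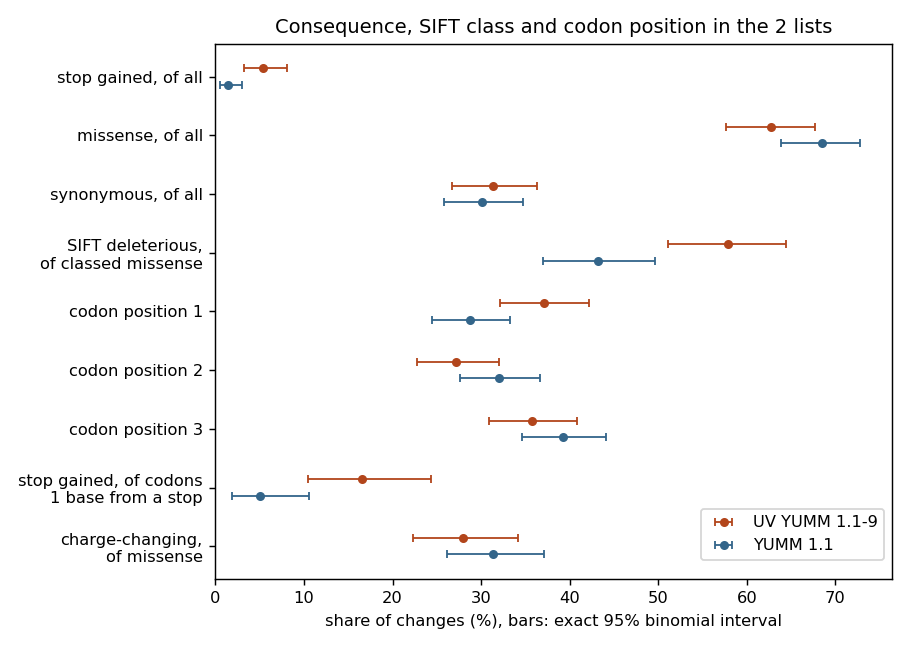
Share of changes (%) in each category for UV YUMM 1.1-9 (376 changes) and YUMM 1.1 (428 changes), with exact 95% binomial intervals as bars. The intervals lie apart for stop gains and for the SIFT deleterious share and overlap in the other 7 rows.

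The share of stop gains differed within codons that could become a stop by 1 base change. Such codons held 121 of the UV YUMM 1.1-9 changes and 120 of the YUMM 1.1 changes. A stop resulted in 20 of the 121, or 16.5% (10.4 to 24.4), and in 6 of the 120, or 5% (1.86 to 10.6). This difference of 11.5 points (3.72 to 19.6) passed by Fisher's exact test (adjusted p = 0.0181). It missed the threshold under 4 alternatives with a difference of about the same size. The difference was 13.6 points at allele fractions from 10% to 25% (exact test, adjusted p = 0.0528) and 12.3 points without multigene families (exact test, adjusted p = 0.0520). It was 10.8 points without shared sites (exact test, adjusted p = 0.0833) and 11.4 points at 20% or more (exact test, adjusted p = 0.314).

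Of the 20 stop gains in UV YUMM 1.1-9, 15 arose at codon position 1, 4 at position 2 and 1 at position 3. Glutamine codons gave 6, lysine codons 4, glutamate codons 3, and arginine, leucine and serine codons 2 each, with 1 from cysteine. The new stop was TAG in 12, TAA in 4 and TGA in 4. By base change, written from the pyrimidine of the pair, T>A gave 8, C>T 7, C>A 4 and C>G 1. In YUMM 1.1, 4 of the 6 stop gains came from C>A and 2 from tyrosine codons, and 4 of the 6 new stops were TAA. None of these 26 changes had another listed change within 2 bases, so each stop stands on its own base.

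The stop gain with the highest allele fraction was Q772* in Ntrk2, which encodes TrkB, the receptor tyrosine kinase for brain-derived neurotrophic factor. At chr13:59128201 (build mm10) it had 5 of 14 reads in UV YUMM 1.1-9, or 35.7% (exact interval 12.8 to 64.9), and 0 of 20 reads in YUMM 1.1, which allows a share of up to 15%. The change was in the first base of a glutamine codon, Cag to Tag. It is 1 of 2 protein changes of UV YUMM 1.1-9 in a list of 57 melanoma and cancer genes, where YUMM 1.1 also had 2. The share over all captured genes is not known here, so nothing is read from this count.

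R745* in Limch1, whose protein binds actin and activates non-muscle myosin, had 8 of 32 reads in UV YUMM 1.1-9 and 0 of 34 in YUMM 1.1. K2087* in Tnxb, the extracellular matrix protein tenascin X, had 13 of 56 reads in UV YUMM 1.1-9 and 1 of 69 in YUMM 1.1. K432* in Stau1, which binds double-stranded RNA and directs its transport and decay, had 13 of 65 reads and 0 of 69. The Tnxb site thus carried 1 alternative read in YUMM 1.1, as did those of Gm2832 and Myo5c, while the other 17 stop sites carried none. At those 17 sites a count of 0 allowed a share of 1.62% to 15% in YUMM 1.1, with a median of 6.67%.

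Q242* in Lama2, the laminin alpha 2 chain of the basement membrane, had 5 of 34 reads in UV YUMM 1.1-9 and 0 of 43 in YUMM 1.1. L396* in Atrn, attractin, which acts in the switch of hair pigment through the agouti pathway, had 10 of 63 reads and 0 of 58. K1317* in Myo5c, a class V myosin that moves secretory vesicles, had 7 of 45 reads and 1 of 33. Allele fractions of these 3 were 14.7%, 15.9% and 15.6%, with wide exact intervals, such as 4.95% to 31.1% for Lama2.

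S85* in Dixdc1, a positive regulator of Wnt signalling, had 5 of 34 reads in UV YUMM 1.1-9 and 0 of 47 in YUMM 1.1. Q634* in Plcb2, phospholipase C beta 2, had 5 of 39 reads and 0 of 45, the lowest allele fraction of the 20 at 12.8%. E49* in Rrp1b, a nucleolar protein that acts in ribosomal RNA processing, had 8 of 52 reads and 0 of 59. The Rrp1b stop is the earliest of the 20 by residue number as the table numbers it.

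Q402* in Gcnt3, a mucin-type glycosyltransferase, had 8 of 53 reads in UV YUMM 1.1-9 and 0 of 37 in YUMM 1.1. Q305* in Zbtb44, a zinc finger gene, had 6 of 38 reads and 0 of 50. Q851* in Csmd3, a very large transmembrane protein gene, had 5 of 31 reads and 0 of 29. Allele fractions of this group ran from 15.1% to 16.1%. K207* in Pi16, a peptidase inhibitor gene, and L393* in Slco6d1, an organic anion transporter gene, had 5 of 28 and 6 of 43 reads. R145* in Olfr1325 and C165* in Olfr143, both odorant receptor genes, had 5 of 23 and 13 of 96 reads. YUMM 1.1 had no alternative read at these 4 sites.

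The deepest stop sites of UV YUMM 1.1-9, in Gm2832 and AC126554.8, lay in genes without a well-known product. E198* in Gm2832 had 26 of 137 reads in UV YUMM 1.1-9 and 1 of 213 in YUMM 1.1, and E137* in AC126554.8 had 29 of 180 and 0 of 185. S400* in 6030458C11Rik, also without a well-known product but less deep, had 7 of 36 and 0 of 43. Genes whose symbols mark multigene families or predicted genes held 4 of the 20 stop gains, against 3 of the 6 in YUMM 1.1. AC126554.8 and, in YUMM 1.1, C87414 do not have such a symbol and were not counted. Over all changes these genes held 16.8% in UV YUMM 1.1-9 and 32.9% in YUMM 1.1.

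The 6 stop gains of YUMM 1.1 stood at allele fractions from 20.8% to 57.0%. Y109* in Rprm, reprimo, a p53-induced cell cycle arrest gene, had 5 of 24 reads. G106* in Dram1, a lysosomal membrane protein that p53 induces and that promotes autophagy, had 15 of 55 reads. K426* in the vomeronasal receptor gene Vmn2r41 had 170 of 298 reads, the highest of the 6. Y102* in Olfr382 had 58 of 266 reads, S3* in 4930522H14Rik 55 of 152 and Q268* in C87414 82 of 219. The C87414 site is also in the YUMM 1.3 or MB49 list.

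**Figure D2:**
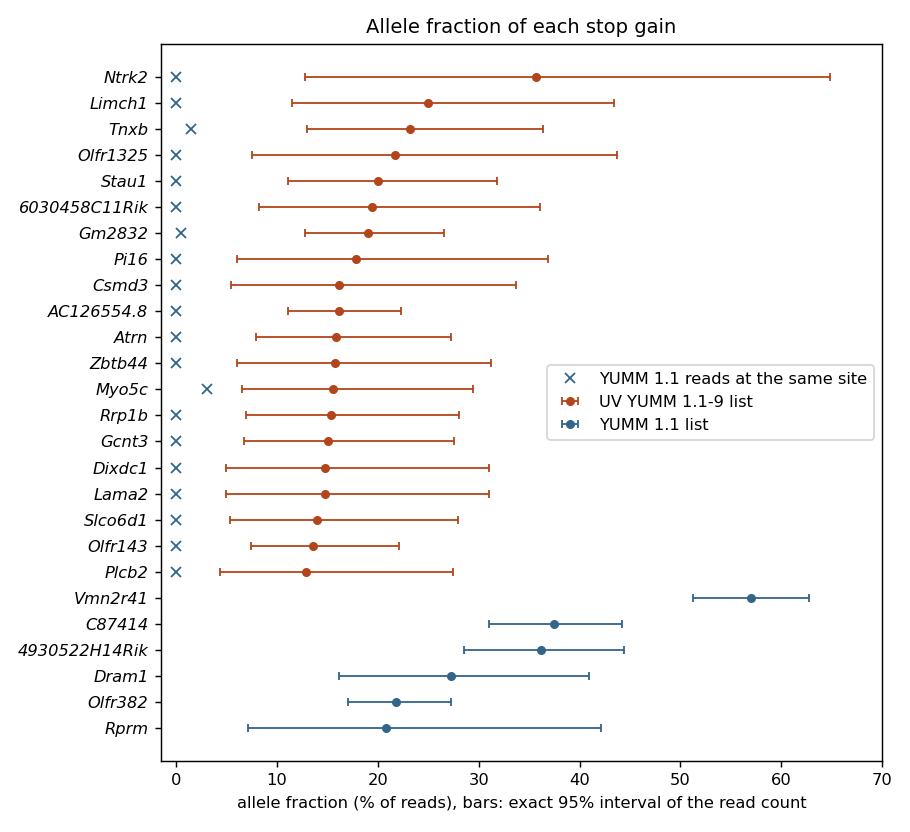
Allele fraction (% of reads) of each stop gain in the UV YUMM 1.1-9 list (20, upper) and the YUMM 1.1 list (6, lower), with exact 95% intervals of the read counts as bars. Crosses are the YUMM 1.1 reads at the UV YUMM 1.1-9 sites, where 17 sites had 0 alternative reads and 3 had 1.

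Among missense changes with a SIFT class, 129 of 223 were called deleterious in UV YUMM 1.1-9, or 57.8% (exact interval 51.1 to 64.4). In YUMM 1.1 it was 108 of 250, or 43.2% (37.0 to 49.6). The excess was 14.6 points (5.62 to 23.3), and Fisher's exact test gave an adjusted p of 0.00980. A SIFT score of 0, the strongest call, was given to 34.5% of the classed changes in UV YUMM 1.1-9 and to 22.8% in YUMM 1.1, and the median score was 0.03 against 0.09. SIFT gave no class to 13 of 236 missense changes in UV YUMM 1.1-9 and to 43 of 293 in YUMM 1.1. With these counted as deleterious the difference was 8.63 points (exact test, adjusted p = 0.119), and with these counted as tolerated it was 17.8 points (exact test, adjusted p = 0.000457). Without sites shared between lists it was 9.85 points (exact test, adjusted p = 0.115), and without multigene families 11.9 points (exact test, adjusted p = 0.0520). It also missed the threshold without low confidence classes, at 11.3 points, at allele fractions from 10% to 25%, at 13.8 points, and at 20% or more, at 17.4 points (exact test, adjusted p = 0.0568, 0.0528 and 0.196).

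The 10 changes called deleterious with the highest allele fractions reached from 25% to 38.9%. F30L in Atp5l, subunit g of the mitochondrial ATP synthase, had 35 of 90 reads in UV YUMM 1.1-9 and 1 of 75 in YUMM 1.1. L57V in Hrh4, the histamine H4 receptor, had 10 of 31 reads and 0 of 37. D1807N in Lrp1b, a large receptor of the LDL receptor family, had 16 of 59 reads and 0 of 60. Atp5l was the deepest of the 10 in UV YUMM 1.1-9, and its interval of 28.8% to 49.7% was the only one of these 3 to stay above 20%.

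G264D in Arhgap36 had 8 of 28 reads in UV YUMM 1.1-9, E383K in Arhgef2, a microtubule-bound guanine nucleotide exchange factor, had 6 of 23, and V496L in Rap1gds1, a chaperone of small GTPases, had 7 of 27. I2007R in Fryl had 9 of 28 reads, Y525H in Grik5, a kainate receptor subunit, had 6 of 23, K156T in the homeobox gene Hhex had 8 of 32 and T165N in Olfr600 had 11 of 39. YUMM 1.1 had no alternative read at these 7 sites, at depths of 23 to 57 reads.

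Codon positions were compared next. Position 1 held 139 of 375 changes in UV YUMM 1.1-9, or 37.1% (32.2 to 42.2), and 123 of 428 in YUMM 1.1, or 28.7% (24.5 to 33.3). The excess was 8.33 points (1.82 to 14.8), and Fisher's exact test gave an adjusted p of 0.0289. It missed the threshold under 6 of 10 alternatives, with adjusted p from 0.0514 without the floor to 0.196 when the allele fraction had to reach 20% (exact test). Positions 2 and 3 differed by -4.81 points (-11.0 to 1.54) and -3.52 points (-10.2 to 3.19), which did not pass (exact test, adjusted p = 0.213 and 0.396).

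Stop gains at position 1 made up 15 of 139 changes there, or 10.8% (6.17 to 17.2), in UV YUMM 1.1-9 and 3 of 123, or 2.44% (0.506 to 6.96), in YUMM 1.1. At position 3, 109 of 134 changes in UV YUMM 1.1-9 were synonymous, or 81.3% (73.7 to 87.5), and 124 of 168, or 73.8% (66.5 to 80.3), in YUMM 1.1. Within T>C changes, position 1 held 30 of 70 in UV YUMM 1.1-9 and 14 of 86 in YUMM 1.1, or 42.9% against 16.3%. Within C>T it held 61 of 154 and 31 of 93, or 39.6% against 33.3%. For T>A the shares were 37.3% against 27.7%, and for C>A 27.6% against 25.9%. Within T>G and C>G position 1 was less frequent in UV YUMM 1.1-9, at 23.5% against 28.3% and 33.3% against 37.8%. These values within strata were not tested.

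**Figure D3:**
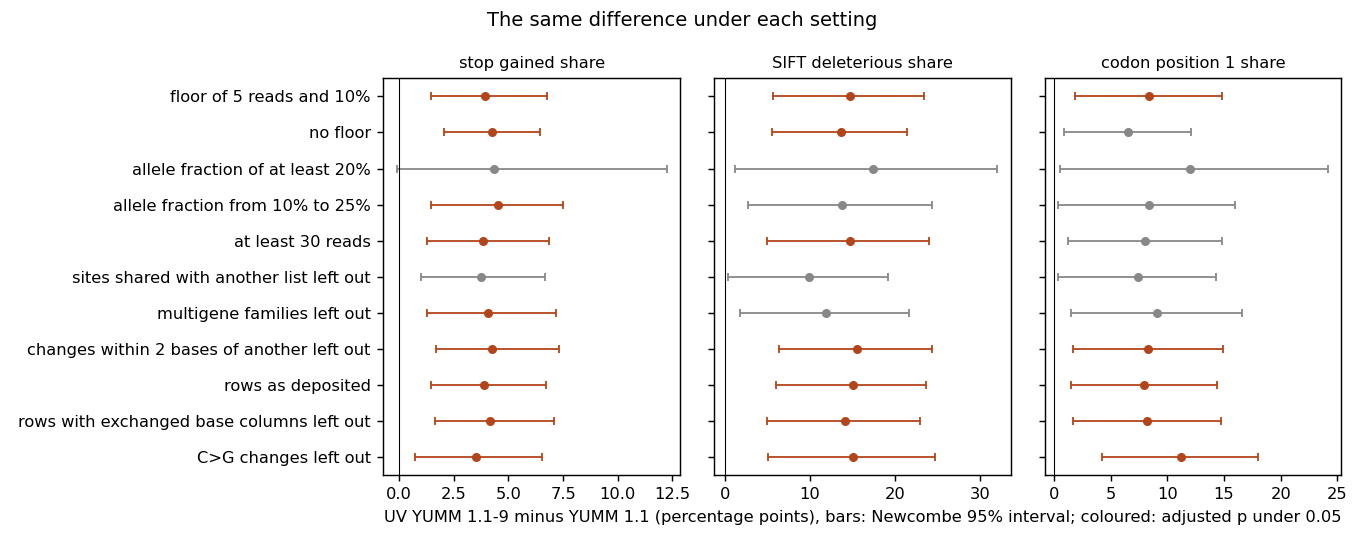
Difference in share, UV YUMM 1.1-9 minus YUMM 1.1 (percentage points), for stop gains, SIFT deleterious calls and codon position 1 under the settings that apply to all 3. Settings that leave out or recount SIFT classes are not drawn. Bars are Newcombe 95% intervals, and colour marks an adjusted p under 0.05. Every difference shown is above 0, and those at allele fractions of at least 20% and without shared sites are uncoloured in all 3 panels.

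Base changes differ between the lists, so consequences were also described within each class. C>T made up 154 of the 375 classed changes in UV YUMM 1.1-9 and 93 of 428 in YUMM 1.1. Stop gains made up 7 of the 154, or 4.55% (1.85 to 9.14), and 1 of the 93, or 1.08% (0.0272 to 5.85). For T>A they made up 8 of 67, or 11.9% (5.30 to 22.2), against 1 of 47, or 2.13% (0.0539 to 11.3). For C>A they made up 4 of 29, or 13.8% (3.89 to 31.7), against 4 of 58, or 6.90% (1.91 to 16.7). In each of these 3 classes the share was higher in UV YUMM 1.1-9, with overlapping intervals. T>C and T>G gave no stop gain in either list, and C>G gave 1 in UV YUMM 1.1-9.

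Weighting the YUMM 1.1 shares by the class mix of UV YUMM 1.1-9 gave 1.36% stop gains, where UV YUMM 1.1-9 had 5.33% of its classed changes. The weighted stop share rests on 6 stop gains of YUMM 1.1, with 1 of 93 in C>T and 1 of 47 in T>A. No interval was computed for it. The same weighting gave 41.6% deleterious among classed missense changes in YUMM 1.1, where UV YUMM 1.1-9 had 57.8%. For missense changes it gave 64.3% against 62.9%, and for synonymous changes 34.3% against 31.5%. The gap in missense share was thus smaller after weighting, the synonymous share turned from slightly higher to lower in UV YUMM 1.1-9, and the gaps in stop gains and deleterious calls were of about the same size as before. The share called deleterious was higher in UV YUMM 1.1-9 in all 6 classes, from 46.8% against 37.0% for C>T to 75% against 43.2% for T>G, and the intervals overlapped in every class.

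**Figure D4:**
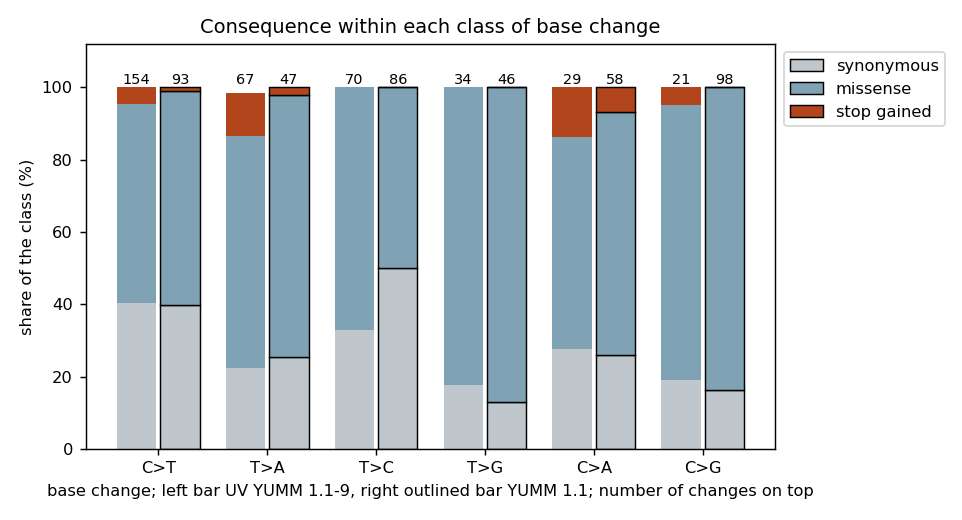
Share (%) of synonymous, missense and stop-gained changes within each class of base change, with the number of changes above each bar; the left bar of a pair is UV YUMM 1.1-9 and the right, outlined bar is YUMM 1.1. Stop gains reach 11.9% of T>A and 13.8% of C>A in UV YUMM 1.1-9, and the T>A bar there stops short of 100% because 1 change is a stop loss.

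The residues hit by missense changes differed most at phenylalanine. It was the residue lost in 30 of 236 missense changes of UV YUMM 1.1-9, or 12.7% (8.74 to 17.6), against 9 of 293 in YUMM 1.1, or 3.07% (1.41 to 5.75). The excess was 9.64 points (5.11 to 14.7), and Fisher's exact test gave an adjusted p of 0.000679 over 20 residues. Phenylalanine was the only residue lost of 20 tested to pass the threshold, which is 5% of them. It passed under 9 of 10 alternatives and not when the allele fraction had to reach 20%, where 6 of 51 and 8 of 183 changes hit it (exact test, adjusted p = 0.432). Both phenylalanine codons, TTT and TTC, consist of pyrimidines only, so any changed T there has a pyrimidine beside it within the codon. This follows from the genetic code and holds for the 9 changes of YUMM 1.1 as well, so it does not set the lists apart.

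In UV YUMM 1.1-9 phenylalanine was replaced by leucine in 11 changes, by isoleucine in 10, by serine in 5, and by tyrosine and cysteine in 2 each. In YUMM 1.1, 5 of its 9 phenylalanine changes gave valine, which UV YUMM 1.1-9 had in none. By class the 30 changes were 16 T>A, 12 T>C and 2 T>G, and the 9 of YUMM 1.1 were 2, 1 and 6. Of the 28 with a SIFT class in UV YUMM 1.1-9, 21 were called deleterious. Their allele fractions ran from 10.6% to 38.9%, with a median of 14.6%.

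Several of the 30 lie in genes of known function, named here after their values were seen. F363L in Irgm1, an interferon-inducible GTPase that acts in autophagy of intracellular pathogens, had 11 of 94 reads in UV YUMM 1.1-9 and 0 of 106 in YUMM 1.1, and SIFT called it tolerated. F469I in Mtr, methionine synthase, had 6 of 34 reads and 0 of 48 and was called deleterious. F104S in Dsg2, the cell adhesion protein desmoglein 2, had 7 of 43 reads and 0 of 70, and was called deleterious as well. F1686S in Trpm7, an ion channel fused to a kinase, had 12 of 96 reads and 0 of 121.

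Glutamate was lost in 11.4% of the missense changes of UV YUMM 1.1-9 (27 of 236, interval 7.68 to 16.2). The share was 5.46% in YUMM 1.1 (16 of 293, interval 3.15 to 8.72). This difference of 5.98 points (1.25 to 11.1) did not pass after adjustment by the exact test (adjusted p = 0.0941), and it passed without the floor. Alanine was lost in 5.08% against 11.3%, which did not pass either (exact test, adjusted p = 0.0941), and it passed without the floor and without shared sites. Tryptophan was lost in 0 of 236 (exact interval 0 to 1.55%) and in 7 of 293, which did not pass (exact test, adjusted p = 0.0941).

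Among residues gained, lysine and alanine passed the threshold, or 10% of the 20 tested. Lysine was gained in 11.9% of the missense changes of UV YUMM 1.1-9 (28 of 236, interval 8.03 to 16.7). The share was 4.44% in YUMM 1.1 (13 of 293, interval 2.38 to 7.47). The excess was 7.43 points (2.79 to 12.5), and Fisher's exact test gave an adjusted p of 0.0174. It passed under 4 of 10 alternatives. Without C>G changes the difference was nearly as large, at 7.04 points, and did not pass (exact test, adjusted p = 0.255). Without multigene families it was 7.27 points and did not pass either (exact test, adjusted p = 0.0874). Alanine was gained in 8 of 236, or 3.39%, against 34 of 293, or 11.6%, a difference of -8.21 points (-12.7 to -3.73; exact test, adjusted p = 0.0107). C>G changes, which are frequent in YUMM 1.1, gave 23 of those 34 alanines, and without them alanine no longer passed.

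**Figure D5:**
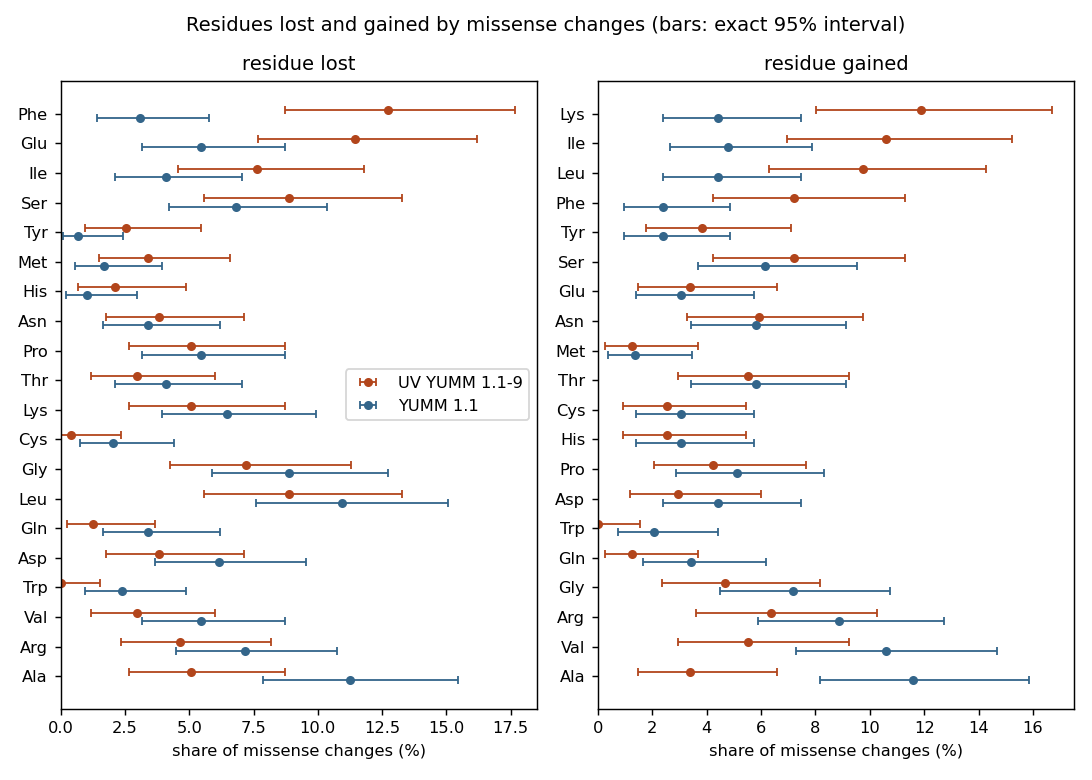
Share (%) of missense changes that lost (left) or gained (right) each residue in UV YUMM 1.1-9 (236 changes) and YUMM 1.1 (293 changes), ordered by the difference, with exact 95% intervals as bars. Phenylalanine stands highest among residues lost, and lysine is at the top and alanine at the bottom among residues gained.

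Glutamate to lysine was the commonest exchange in UV YUMM 1.1-9, with 20 of 236 missense changes against 2 of 293 in YUMM 1.1. Of the 28 lysines gained, 26 came from C>T changes. The codon change was Gaa to Aaa in 11 and Gag to Aag in 9. Because glutamate is negative and lysine positive, these 20 moved the side chain charge by 2 units. Of all missense changes, 44 of 236 in UV YUMM 1.1-9 moved charge toward positive and 22 toward negative, while in YUMM 1.1 it was 51 and 41 of 293. The share that changed charge at all was 28.0% against 31.4%, and the difference of -3.43 points (-11.1 to 4.44) did not pass by the exact test (adjusted p = 0.500).

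The glutamate to lysine changes had allele fractions from 10.1% to 41.2%, with a median of 18.0%, and SIFT called 8 of the 17 with a class deleterious. E915K in Casp8ap2, a caspase 8 associated protein, had 7 of 38 reads in UV YUMM 1.1-9 and 0 of 64 in YUMM 1.1. E192K in Mgat5, the enzyme that branches N-glycans, had 7 of 54 reads and 0 of 61. E850K in Myh6, a cardiac myosin heavy chain, had 6 of 41 reads and 0 of 54. SIFT called all 3 of these deleterious, and YUMM 1.1 had no alternative read at any of the 20 sites. These genes were named after their values were seen. Other exchanges in UV YUMM 1.1-9, besides those from phenylalanine, included leucine to phenylalanine with 7 changes, proline to leucine, serine to phenylalanine and arginine to lysine with 6 each, and proline to serine with 5. Leucine to proline, glutamate to aspartate and glycine to arginine also had 5 each, against 5, 5 and 7 in YUMM 1.1. In YUMM 1.1 the exchanges from leucine to phenylalanine through proline to serine numbered 3, 2, 1, 2 and 4 in that order, and its leading exchange was glycine to alanine with 14, which had 2 in UV YUMM 1.1-9.

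Counting every consequence, 40 glutamate codons were changed in UV YUMM 1.1-9, or 10.7% of 375, of which 27 were missense, 10 synonymous and 3 stop gains. Phenylalanine codons numbered 37, with 30 missense and 7 synonymous changes. In YUMM 1.1 they numbered 20 and 10 of 428. Codons made only of pyrimidines held 95 of the 375 changes in UV YUMM 1.1-9, or 25.3% (21.0 to 30.1), and 46 of 428 in YUMM 1.1, or 10.7% (7.98 to 14.1). Codons made only of purines, which are pyrimidines on the opposite strand, held 22.9% (18.8 to 27.5) and 17.5% (14.0 to 21.5). This grouping of codons was chosen after the values were seen and was not tested.

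Neighbouring changes carried part of the synonymous total. In UV YUMM 1.1-9, 12 pairs of kept changes lay within 2 bases of each other, and each pair held at least 1 synonymous member; YUMM 1.1 had 2 pairs. Reads of the partners were nearly equal, such as 6 of 41 and 6 of 41 for E459K and the synonymous change in the same codon of Nol10, a nucleolar protein gene. In 6 pairs both changes lay in 1 codon. If carried on the same DNA molecule, they would still give lysine in Nol10, Mov10l1 and Otud4 and proline in Olfr307. In Zfp663 the joint codon would give leucine, as listed, and in Trdv4 it would give leucine where S18F is listed alone. Whether partners share a molecule was not tested, since the tables count reads per base. Without such pairs the synonymous shares were 29.8% and 30.2%.

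The gained changes were spread thinly over genes. The 376 changes of UV YUMM 1.1-9 lay in 357 gene symbols, 19 genes had 2 changes and none had 3. In 12 of the 19 genes the 2 changes were a neighbouring pair described above, within 2 bases of each other. The changes in Calu, calumenin of the endoplasmic reticulum, were L93R with 6 of 51 reads and I80L with 5 of 45, both called deleterious, and YUMM 1.1 had no alternative read at either. Arhgef2 carried E383K and F206I, with 6 of 23 and 5 of 43 reads. Mrc1, the macrophage mannose receptor, carried L517V and D971Y, with 8 of 69 and 10 of 57 reads. Enam, which encodes the enamel protein enamelin, and Neb, the giant muscle protein nebulin, each carried 1 missense and 1 synonymous change. In 4930444G20Rik and Adcy1 the base columns of the partner rows were exchanged, so their reads may be exchanged too.

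Of the 357 genes with a kept change in UV YUMM 1.1-9 and the 344 in YUMM 1.1, 12 were the same. The number and lengths of all captured genes are not known here, so nothing is read from this overlap. In Trpm7, F1686S of UV YUMM 1.1-9 stood beside I1044T of YUMM 1.1, which had 10 of 57 reads there, and both were called deleterious. In Lama2, Q242* of UV YUMM 1.1-9 stood beside T2366K of YUMM 1.1, with 30 of 147 reads. Myh15, a myosin heavy chain gene, carried R1125G in UV YUMM 1.1-9 with 5 of 47 reads, and K262N and A1559V in YUMM 1.1 with 41 of 100 and 24 of 70. Ttn, the very long gene of titin, carried 2 changes in UV YUMM 1.1-9 and 4 in YUMM 1.1. Cacna1b, a neuronal calcium channel gene, carried G1613E in UV YUMM 1.1-9 with 9 of 58 reads, called deleterious, and a synonymous change in YUMM 1.1. The others were 5330417C22Rik, 9330182L06Rik, Arhgap24, Catsperb, Flg, Mbd3 and Tcf20.

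Gene lists of the study's themes held few of the 357 genes with a kept change in UV YUMM 1.1-9, and with so few genes hit nothing is read from these counts. No kept change of UV YUMM 1.1-9 lay in 32 autophagy genes, 24 antigen presentation genes or 23 nucleotide excision and ultraviolet repair genes. YUMM 1.1 had 1 synonymous change among them, in Nlrc5, the activator of MHC class I genes. Outside these lists, UV YUMM 1.1-9 carried F57I in the MHC class I gene H2-Q1, with 9 of 66 reads against 0 of 77 in YUMM 1.1 and a deleterious call of low confidence. This gene was named after its values were seen, and its symbol is among those counted as multigene families. Of 57 melanoma and cancer genes, 2 carried a protein change in UV YUMM 1.1-9, the Ntrk2 stop and G348S in Fbxw7, a substrate receptor of a ubiquitin ligase, with 9 of 53 reads against 0 of 56 in YUMM 1.1 and a tolerated call. In YUMM 1.1 they were A2P in the splicing factor gene Sf3b1 and A18G in the G protein gene Gnaq, with 7 of 30 and 6 of 28 reads, and both came from C>G.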

How the data were processed

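Variant tables of 4 exome libraries (Agilent SureSelect Mouse All Exon capture, paired reads of 151 bases, stated mean depth 80X, per the labels' protocols) were used as deposited. Per the submitters' processing notes the build was mm10 and the tools included BWA 0.7.5a, SAMtools, Picard, GATK and FastQC. Which of them called variants, and at what thresholds, is not given in the sources used here. The deposited values are raw whole-number read counts per base, reference and alternative, per the file headers. The UV YUMM 1.1-9 table lists changes additional to YUMM 1.1 and also gives YUMM 1.1 reads. The MB49 table was assigned by elimination to the library labelled 49XC-49 and gave shared positions only.

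Rows with 1 position and new base were counted once. Codon position, base class and residues came from the codon and amino acid columns. In 32 UV YUMM 1.1-9 rows, 15 of them within the floor, the base columns belong to a partner row; codon columns were used for these. Shares have exact (Clopper-Pearson) 95% intervals, differences Newcombe intervals, and Fisher's exact test was two-sided with Benjamini-Hochberg adjustment over 9 results, or over 20 residues, at 0.05 (Python 3.11.15, scipy 1.17.1). The share test was run on simulated lists of 376 and 428 independent changes with known shares. This does not cover dependent changes, smaller groups or lists made in different ways. Intervals and tests cover counting error only: changes within 1 library are not independent replicates, and reads without molecular identifiers are not independent molecules. A count of 0 was read as allowing 3 reads. Multigene families and predicted genes were taken from symbol stems, such as Olfr, Vmn, Zfp, H2-, Mup, Cyp, Gm and Rik. Genes named were all stop gains within the floor, the 10 deleterious missense changes of highest allele fraction, up to 12 genes with several changes (some described), up to 12 genes in both lists and protein changes in fixed lists; a few others are named as chosen after their values were seen. The members and lists were chosen with earlier results of these data known. Stops could not be placed along the protein because no protein sequences were used here.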

Additional observations from a re-analysis of the deposited data

How the results depend on the processing

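Each difference (UV YUMM 1.1-9 minus YUMM 1.1, in percentage points) was recomputed under 10 to 13 alternatives. Of 94 recomputed differences, 70 kept their direction and their side of the threshold. Among results that had passed, this held in 8 of 10 for stop gains and 6 of 10 at codons 1 base from a stop. It held in 7 of 13 for SIFT and 4 of 10 for position 1. The rest of the 70 came from results that had not passed. The excess of stop gains kept its direction in all 10, from 3.53 to 4.53 points, and missed the threshold in 2: at allele fractions of at least 20% (4.34) and without sites shared with another list (3.76). At 20% or more, the stop share at codons 1 base from a stop was 11.4, the SIFT difference 17.4 and codon position 1 was 11.98, none passing, on 77 changes of UV YUMM 1.1-9; missense turned to 0.406, synonymous to -4.74 and charge to 6.01 points. From 10% to 25% the values for the stop share at those codons, SIFT and position 1 were 13.6, 13.8 and 8.34, without shared sites 10.8, 9.85 and 7.38, and without multigene families 12.3, 11.9 and 9.11, none passing. Position 1 also missed without the floor (6.54) and at 30 reads or more (8.01), and SIFT without low confidence classes (11.3) and with unclassed changes counted as deleterious (8.63). Missense passed without the floor (-8.12). Synonymous turned to -0.359 without neighbouring changes and to -2.13 without C>G changes. Residues lost past the threshold numbered 3 without the floor, 2 without shared sites and 0 at 20% or more. Residues gained, 2 as reported, numbered 3 without the floor, 3 with rows as deposited, 4 without shared sites, 1 at 30 reads or more, 1 without families, 1 without neighbouring changes, and 0 at 20% or more, from 10% to 25% and without C>G. Leaving out C>G, leaving out exchanged rows and recounting unclassed changes were chosen after seeing the data. Where a setting keeps fewer changes, that alone widens the interval; otherwise the cause was not tested. No paired analysis was possible because each line has 1 library. Depth limits the allele fractions: at 5 of 14 reads the interval spans 12.8% to 64.9%.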
